A study of Homo sapiens with 2 samples.

Results

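Paclitaxel-resistant SUM159 spheroids were compared with treatment-naïve SUM159 spheroids, cell by cell and as summed populations, on a targeted panel of breast cancer genes. SUM159 is a human triple-negative breast cancer line, which lacks the hormone receptors and HER2 amplification that mark the other main types of the disease. The cells compared were all those with at least 1000 transcript molecules, each counted once by a unique molecular identifier (UMI). These were 2164 of 3751 cell barcodes of the paclitaxel-resistant spheroids and 2442 of 4362 barcodes of the treatment-naïve spheroids, 4606 of the 30122 barcodes in the series. The resistant population had been derived from attached SUM159 cells by prolonged paclitaxel exposure at rising doses, and the treatment-naïve population was the untreated line. Both carried the genotype label Wt and grew in the same medium with serum, insulin and hydrocortisone, and spheroids formed on Matrigel-coated plates. GEO's label for the spheroid drug population says treated, whereas the series design says resistant, and the name of each file was the only link between a matrix and its population. The series also holds doxorubicin-resistant spheroids, which were pooled with these 2 populations under separate sample tags on 1 cartridge, and the same 3 populations grown attached on another cartridge. No population was replicated and the resistant cells are 1 derived population, so paclitaxel resistance and any other difference between the 2 cultures cannot be told apart. The intervals in parentheses are 95% intervals that cover counting error only, and no test was possible.

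Paclitaxel binds and stabilises microtubules and arrests dividing cells in mitosis. P-glycoprotein, the efflux pump that ABCB1 encodes, carries paclitaxel, doxorubicin and other hydrophobic drugs out of the cell, and its gain is a well-known route to taxane resistance in cultured cells. SUM159 cells belong to the mesenchymal-like end of triple-negative disease and express vimentin and matrix genes, beside keratins of the basal and luminal layers of the breast epithelium.

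The paclitaxel-resistant spheroids held 8023738 UMIs in the kept cells and the treatment-naïve spheroids 10796029, and the median cell had 3293 and 3712 UMIs in paclitaxel-resistant and treatment-naïve spheroids, with 123 and 125 genes. Levels are given as CPM, the UMIs of a gene summed over the cells of a population and scaled to a total of 1000000. Genes with 50 UMIs or more in at least 1 of the populations are called measured, and those whose CPM also differed by 2-fold or more are called higher or lower. Of 249 measured genes, 25 were higher (10%) and 52 were lower (20.9%) in the paclitaxel-resistant spheroids, and the median log2 fold of all 249 was 0.01. These shares are the background for the counts given for each gene list below. Because CPM is a share of a fixed total, it can rise when other genes fall. With unscaled totals the median of all genes was -0.42 and the calls were 13 higher and 78 lower, with 14.3% of calls upward in place of 32.5%. Unscaled totals were summed over 2164 resistant and 2442 naïve cells, so they also carry this difference in the number of cells. Leaving out of the total the 5 genes most abundant in naïve spheroids (GAPDH, LGALS1, CXCL8, VIM and S100A9) moved the median to 0.15, with 33 higher and 46 lower. With FN1 in place of S100A9, the 5 most abundant over both populations, a set added after the data had been seen, the median was 0.37 with 45 higher and 41 lower, and 52.3% of calls were upward. The higher calls lost with unscaled totals included ABCG2, BCL2, FOXA1, ICOSLG, KRT81, RNASE4, SLIT2, TCF4, TYMS and UBE2C. The lower calls lost without the 5 genes most abundant in naïve spheroids were BCL6, HIC1, IGFBP7, LAG3, NAT1 and NOTCH1, and with the set over both populations CASP5, CDKN1A, IL6, LGALS3 and PLAU were lost as well. Each of these 3 scalings multiplies all folds by 1 common factor, too small to turn the direction of any of the 77 called genes. GAPDH, the glycolytic enzyme gene and the most abundant transcript, was near equal at 175058 CPM in paclitaxel-resistant spheroids and 174944 CPM in treatment-naïve spheroids. As a check of the cell line, 5 mesenchymal markers summed to 209983 CPM in paclitaxel-resistant and 141890 CPM in treatment-naïve spheroids, and 5 basal breast markers to 7278 and 24694 CPM. The higher mesenchymal sum came from VIM and FN1, whereas COL1A1, COL3A1 and PDGFRB had lower CPM in the paclitaxel-resistant spheroids.

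The plot of the largest folds sets out the levels behind the 12 largest differences in each direction.

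**Figure D1:**
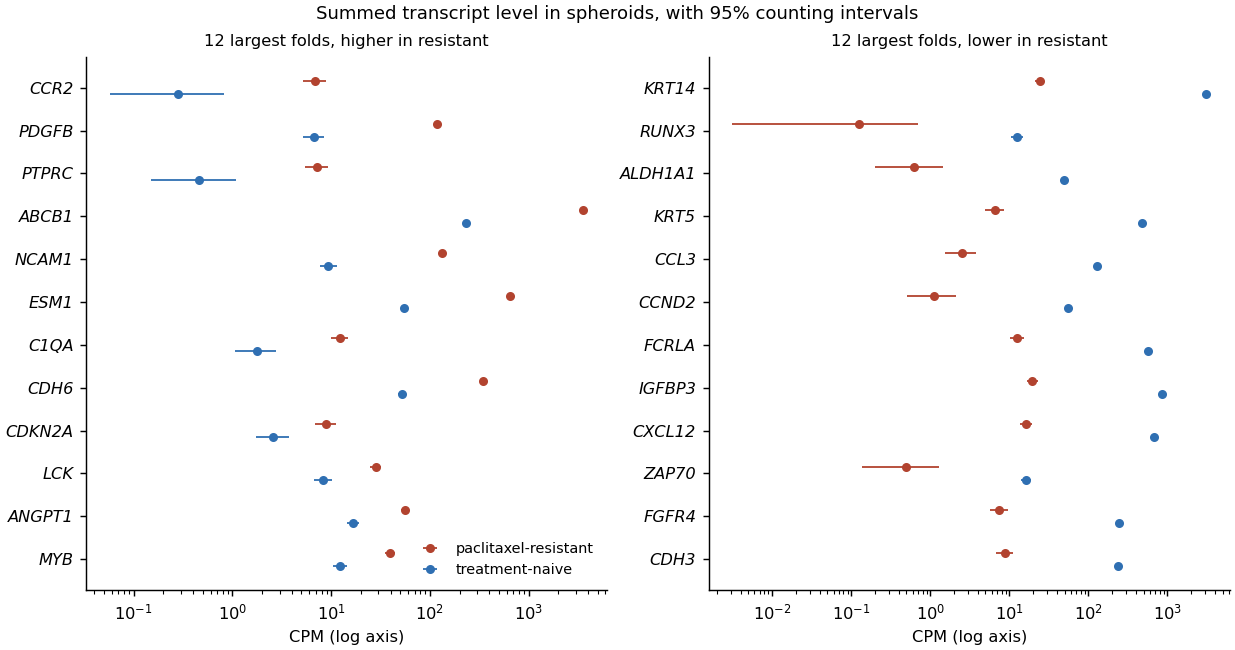
Summed level of the 12 genes with the largest folds upward (left) and downward (right) in CPM on log axes, paclitaxel-resistant spheroids in red and treatment-naïve spheroids in blue, with exact 95% Poisson intervals. ABCB1 lies at 3539.5 CPM in resistant and 234 CPM in naïve spheroids, KRT14 at 24.2 and 3032 CPM, whereas CCR2, PTPRC and RUNX3 rest on few UMIs and have wide intervals.

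Both measured drug efflux transporters were higher in the paclitaxel-resistant spheroids. ABCB1 had 3539.5 CPM in paclitaxel-resistant spheroids and 234 CPM in treatment-naïve spheroids, a 15.1-fold (14.5 to 15.8) difference. At a common depth of 1000 UMIs per cell, drawn at random from each cell, 67.8% of paclitaxel-resistant and 8.52% of treatment-naïve cells had at least 1 ABCB1 UMI, and without that thinning the shares were 83.4% and 20.6%. More than 5 ABCB1 UMIs remained in 17.5% of thinned resistant and 1.23% of thinned naïve cells. ABCG2, the other measured pump of this family, had 473 CPM in paclitaxel-resistant spheroids and 185 CPM in treatment-naïve spheroids, 2.55-fold (2.42 to 2.70) higher, and was seen in 28.2% of paclitaxel-resistant and 12.6% of treatment-naïve cells after thinning. With unscaled totals ABCG2 fell below the size rule and ABCB1 did not.

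ABCB1 was unevenly spread in both populations. In the unthinned data 1013 of 2164 resistant cells (46.8%, 44.7% to 48.9%) had more than 5 ABCB1 UMIs, and these held 93.0% of the ABCB1 UMIs of the population. Their median depth was 4220 UMIs, above the 2601 UMIs of the remaining resistant cells. Among treatment-naïve cells only 76 of 2442 (3.11%, 2.46% to 3.88%) passed the same mark, yet they held 77.0% of that population's ABCB1 UMIs. A single naïve cell held 12.5% of them. These 76 cells also had 133 CPM of NCAM1 and 33.4 CPM of PDGFB, against 5.08 and 5.75 CPM in the other naïve cells, and 5621 CPM of PTGS2 against 16362 CPM. The resistant population as a whole had 133 CPM of NCAM1 and 118 CPM of PDGFB. In the 76 cells IGFBP3 stood at 448 CPM, between the 878 CPM of the other naïve cells and the 19.6 CPM of the resistant population. Their KRT14 level, 2847 CPM, lay near the 3039 CPM of the other naïve cells and far above the 24.2 CPM of the resistant population. Whether some of these barcodes held 2 cells or carried a wrong sample tag was not tested.

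The DNA around the start is shown for a well-counted gene with a large fold in each direction. A single RefSeq promoter window, 250 bases before to 50 after 1 annotated start on GRCh38.p14, is given for ABCB1 and for KRT5. Among genes with at least 1000 UMIs and an entry in the promoter table, their folds were the most extreme upward and downward. ABCB1 lies at chr7:87713246-87713545 and KRT5 at chr12:52520345-52520644, both on the minus strand and written 5′ to 3′ along it. Capitals would mark a match to a motif searched on both strands, and neither window holds one. That covers only the start shown, and any other promoter of these genes was not searched.
ABCB1: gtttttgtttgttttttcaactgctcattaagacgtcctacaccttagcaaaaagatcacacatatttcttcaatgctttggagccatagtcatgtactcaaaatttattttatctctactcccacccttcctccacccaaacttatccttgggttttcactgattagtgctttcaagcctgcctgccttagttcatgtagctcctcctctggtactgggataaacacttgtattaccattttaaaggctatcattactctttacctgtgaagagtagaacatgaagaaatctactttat
KRT5: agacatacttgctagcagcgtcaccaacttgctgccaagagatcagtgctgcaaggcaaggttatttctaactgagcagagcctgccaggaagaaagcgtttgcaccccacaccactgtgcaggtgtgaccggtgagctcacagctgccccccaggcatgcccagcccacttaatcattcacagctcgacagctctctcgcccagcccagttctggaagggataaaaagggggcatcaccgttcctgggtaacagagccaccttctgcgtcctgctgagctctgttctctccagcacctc
The motifs searched were TATAAA of the core promoter, the letters CCAAT, the AP-1 motif TGANTCA, the GC box GGGCGG and the AP-2 motif GCCNNNGGC, with overlaps between motifs allowed. Promoters were matched for 181 of the 249 measured genes. The GC box stood in 5 of 17 promoters of higher genes (29.4%) and 15 of 37 promoters of lower genes (40.5%), beside 61.3% of the 181 and 44.6% of all 27305 promoters in the table. The AP-1 motif stood in 2 of 17 (11.8%) and 2 of 37 (5.41%), beside 8.84% of the 181 and 7.76% of all promoters. TATAAA was found in 5.88% of the higher and 13.5% of the lower promoters, against 11.95% of all. CCAAT was found in 17.6% and 29.7%, against 35.7% of all, and the AP-2 motif in 23.5% and 13.5%, against 23.0% of all. A match is a run of letters and not evidence that a factor binds there.

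Of 6 measured adhesion molecules 2 were higher and none was lower, under every scaling tried. NCAM1, a neural cell adhesion molecule, had 133 CPM in paclitaxel-resistant spheroids and 9.36 CPM in treatment-naïve spheroids, 14.2-fold (11.6 to 17.6) higher. CDH6, a cadherin of the kidney and nervous system, had 341 CPM in paclitaxel-resistant spheroids and 51.9 CPM in treatment-naïve spheroids, 6.58-fold (6.01 to 7.22) higher. At the common depth NCAM1 was found in 14.1% of paclitaxel-resistant and 1.19% of treatment-naïve cells and CDH6 in 24.5% of paclitaxel-resistant and 5.08% of treatment-naïve cells. The other 4 measured adhesion genes lay between 1.25-fold and 1.44-fold higher, all under the size rule. They were ALCAM, CDH13 (T-cadherin), VCAM1 and PVR, the nectin-like receptor for poliovirus, with PVR at 669.5 against 465 CPM the largest of them.

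PDGFB, the B chain of platelet-derived growth factor, had 118 CPM in paclitaxel-resistant spheroids and 6.67 CPM in treatment-naïve spheroids, 17.7-fold (13.9 to 22.8) higher. It was the only 1 of 4 PDGF ligands and receptors past the size rule. PDGFA, the other ligand, had 275 against 259 CPM (1.06-fold higher). Among the receptors PDGFRA had 7085 against 5041 CPM (1.41-fold higher) and PDGFRB had 1389.8 against 2551 CPM (1.84-fold lower, a difference that passed the rule with unscaled totals). PDGFRB was nevertheless seen in more of the resistant cells, 57.6% against 48.5% of treatment-naïve cells at the common depth, while cells with more than 5 of its UMIs made up 7.12% of resistant and 17.6% of naïve cells. The PDGFRB transcript was thus spread over more cells at lower counts in the resistant spheroids.

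Of 6 measured angiogenic factors, 2 were higher and none was lower. ESM1, a secreted proteoglycan of endothelial cells known as endocan, had 654 CPM in paclitaxel-resistant spheroids and 54.9 CPM in treatment-naïve spheroids, 11.9-fold (10.9 to 12.99) higher, and was seen in 30.3% of paclitaxel-resistant and 4.30% of treatment-naïve cells. ANGPT1, a ligand of the TIE2 receptor, had 55.8 CPM in paclitaxel-resistant spheroids and 16.7 CPM in treatment-naïve spheroids, 3.35-fold (2.81 to 4.00) higher. VEGFA, the main vascular growth factor, was abundant and near equal at 10005 against 10476 CPM, and so was the hypoxia factor HIF1A at 13455 against 13423 CPM. SLIT2, a guidance ligand of ROBO receptors, was 2.40-fold (2.24 to 2.57) higher at 289.9 against 121 CPM and was seen in 20.9% of paclitaxel-resistant and 9.01% of treatment-naïve cells.

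Genes of mitosis lay above the naïve level as a group by modest amounts under the main scaling. All 17 measured G2/M genes had a positive log2 fold, with a median of 0.49 beside 0.01 over all measured genes, and 1 of them passed the size rule. That gene was UBE2C, which encodes a ubiquitin-conjugating enzyme of the anaphase-promoting complex, with 2614 CPM in paclitaxel-resistant spheroids and 1204 CPM in treatment-naïve spheroids, 2.17-fold (2.12 to 2.22) higher. CCNB1, the cyclin of mitotic entry, had 5299 against 2818 CPM (1.88-fold higher), and NDC80, a kinetochore component that contacts microtubules, had 257 against 143 CPM (1.80-fold higher). The smallest differences were those of BIRC5, which encodes survivin, at 1.11-fold, and NUF2, another kinetochore gene, at 1.15-fold. With unscaled totals the median of the list was 0.07, and that of all genes was -0.42. This scaling lowers every log2 fold by the same amount, so the gap between these medians could not change. The unscaled totals of CDC20, NUSAP1, PRC1, NUF2 and BIRC5 lay below the naïve totals, which were summed over more cells. With the 5 genes most abundant over both populations left out of the total, the median of the list was 0.86, with 5 genes past the rule. Among 14 measured G1/S and replication genes the median was 0.27, turning to -0.16 with unscaled totals, and 2 passed the rule, both downward. CCND2, a D-type cyclin, was 49.5-fold (25.9 to 109) lower at 1.12 against 55.5 CPM, and CCNA1, a cyclin best known from the germ line, was 3.97-fold (2.53 to 6.50) lower on 23 against 123 UMIs. At the upper end CDCA7 was 1.86-fold higher and MYBL2, a transcription factor of the cell cycle, was 1.77-fold higher, whereas CCNE2 lay at 98.1 against 80.4 CPM (1.22-fold higher).

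Of 5 nucleotide enzymes, TYMS was past the rule. It encodes thymidylate synthase, the only source of newly made thymidylate, and had 2373 CPM in paclitaxel-resistant spheroids and 981 CPM in treatment-naïve spheroids, 2.42-fold (2.36 to 2.48) higher. TYMS was seen in 57.4% of paclitaxel-resistant and 33.7% of treatment-naïve cells at the common depth. HPRT1, the purine salvage enzyme, had 2409 against 1435 CPM (1.68-fold higher) and RRM2, a subunit of ribonucleotide reductase, had 1108 against 775 CPM (1.43-fold higher). DCK and NME1 differed least, at 1.144-fold higher and 1.02-fold lower. None of the 5 passed the rule with unscaled totals.

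Vimentin and galectin-1 took a much larger share of all transcripts in the paclitaxel-resistant spheroids without passing the size rule. VIM, the intermediate filament of mesenchymal cells, had 134954 CPM in paclitaxel-resistant spheroids and 70254 CPM in treatment-naïve spheroids, 1.92-fold (1.92 to 1.93) higher. LGALS1, which encodes galectin-1, had 151734 CPM in paclitaxel-resistant spheroids and 79733 CPM in treatment-naïve spheroids, 1.90-fold (1.90 to 1.91) higher. FN1, fibronectin, had 66978 against 47020.1 CPM (1.42-fold higher). Per cell thinned to 1000 UMIs the median was 135 VIM UMIs in resistant and 73 in naïve cells, and 148.5 and 79 LGALS1 UMIs. Leaving either set of 5 abundant genes, which hold both of these, out of the total put both past the rule. The mesenchymal list as a whole was split, with 6 of 12 genes on each side and a median of 0.01. PLAU, the urokinase protease, was 2.36-fold (2.33 to 2.39) lower at 4623 against 10918 CPM. THBS1, thrombospondin-1, had 1306 against 749 CPM (1.74-fold higher) and was seen in 46.5% of paclitaxel-resistant and 24.6% of treatment-naïve cells. FAP, a protease of activated fibroblasts, had 14.7 against 21.9 CPM (1.49-fold lower).

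Of 11 measured matrix genes 3 were lower and none was higher, with a median log2 fold of -0.35. Over all measured genes 20.9% were lower and 10% were higher. DCN, the small proteoglycan decorin, had 348 CPM in paclitaxel-resistant spheroids and 3468 CPM in treatment-naïve spheroids, 9.98-fold (9.60 to 10.4) lower, and was found in 17.7% of paclitaxel-resistant and 52.3% of treatment-naïve cells. COL3A1, a fibrillar collagen, had 4328 CPM in paclitaxel-resistant spheroids and 17409 CPM in treatment-naïve spheroids, 4.02-fold (3.98 to 4.07) lower, and LGALS3, galectin-3, was 2.23-fold (2.19 to 2.27) lower at 2081 against 4636 CPM. COL1A1 lay at the limit at 2334 against 4656 CPM, 1.995-fold (1.96 to 2.03) lower. It was past the rule at 2.68-fold with unscaled totals and at 2.01-fold to 2.06-fold with median of ratios scaling, mean CPM per cell, thinned counts, at least 2000 UMIs, or without the deepest 2% of cells or the top cell. Matrix genes called lower then numbered 4 with unscaled totals, median of ratios scaling, mean CPM per cell and thinned counts. At the common depth 64.3% of paclitaxel-resistant and 80.8% of treatment-naïve cells had a COL3A1 UMI, and 22.6% against 48.6% had more than 5.

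Basal epithelial genes were divided, with 5 of 10 measured genes lower and none higher. KRT14, a keratin of basal and myoepithelial cells, had 24.2 CPM in paclitaxel-resistant spheroids and 3032 CPM in treatment-naïve spheroids, 125-fold (109 to 145) lower. This was the largest fold among measured genes with UMIs in both populations under the main scaling, though not after thinning, where ALDH1A1 and KRT5 had larger folds, nor by mean CPM per cell, where that of RUNX3 was larger. Of its 194 UMIs in resistant spheroids, 72 lay in 1 cell, and without the top cell of each population the fold was 192. It was 217 in cells with at least 2000 UMIs, 83.0 with all barcodes, 63.8 after thinning and 62.5 by mean CPM per cell. KRT5, the keratin that pairs with KRT14, had 6.61 CPM in paclitaxel-resistant spheroids and 479 CPM in treatment-naïve spheroids, 72.6-fold (55.4 to 97.01) lower. In naïve spheroids KRT5 was concentrated, with 66.7% of its UMIs in the top 1% of cells, and KRT14 less so with 35.4%. CDH3, P-cadherin, had 8.72 CPM in paclitaxel-resistant spheroids and 237 CPM in treatment-naïve spheroids, 27.2-fold (21.4 to 34.95) lower. TP73, a p53 homologue, was 4.55-fold (4.07 to 5.10) lower at 44.99 against 205 CPM, and KRT17, a further basal keratin found in nearly every cell of both populations, was 2.88-fold (2.86 to 2.91) lower at 7194 against 20741 CPM. The other 5 of the 10 measured basal genes, namely EGFR, FOXC1, ITGA6, SFN and AREG, differed by 1.22-fold or less. ITGA6, the laminin receptor subunit, had 2598 against 2260.2 CPM but was seen in 85.9% of paclitaxel-resistant and 64.3% of treatment-naïve cells at the common depth. Cells with more than 5 ITGA6 UMIs were 9.94% of resistant and 12.2% of naïve cells.

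Both luminal keratins lay just under the size rule on the higher side. KRT8 had 2879 CPM in paclitaxel-resistant spheroids and 1446 CPM in treatment-naïve spheroids, 1.99-fold (1.95 to 2.03) higher and KRT18, its partner, had 14556 CPM in paclitaxel-resistant spheroids and 7867 CPM in treatment-naïve spheroids, 1.85-fold (1.83 to 1.87) higher. More than 5 KRT18 UMIs were counted in 84.5% of thinned resistant and 58.2% of thinned naïve cells. Leaving either set of 5 abundant genes out of the total put both past the rule, whereas with unscaled totals KRT8 was 1.48-fold and KRT18 1.38-fold higher. Of 14 measured luminal genes, 2 were higher and 3 lower, near the 10% and 20.9% over all measured genes. With unscaled totals 0 were higher and 4 lower. FOXA1, a pioneer factor of luminal cells, was 2.24-fold (1.66 to 3.03) higher on 123 against 74 UMIs. MLPH, melanophilin, was 3.72-fold (3.18 to 4.37) lower, CA12, a carbonic anhydrase, 2.92-fold (2.87 to 2.98) lower at 1699 against 4966 CPM, and NAT1, an arylamine acetyltransferase, 2.11-fold (1.23 to 3.77) lower on 19 against 54 UMIs. The defining luminal genes ESR1 and GATA3 had 19 and 20 UMIs in resistant and 6 and 13 in naïve spheroids, too few to be measured.

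Inflammatory mediators made up the list with the most lower genes. Together the 19 listed genes took 6.36% of all UMIs in paclitaxel-resistant and 18.0% in treatment-naïve spheroids. Of 16 measured members 10 were lower and none was higher, with a median log2 fold of -1.89, and 9 to 11 were lower under the other scalings and after thinning. S100A9, a subunit of the calcium-binding protein calprotectin, had 11164 CPM in paclitaxel-resistant spheroids and 63354 CPM in treatment-naïve spheroids, 5.68-fold (5.64 to 5.71) lower. Its partner S100A8 was 3.23-fold (3.00 to 3.48) lower at 109.8 against 355 CPM. PTGS2, the inducible cyclooxygenase of prostaglandin synthesis, had 1549 CPM in paclitaxel-resistant spheroids and 16004 CPM in treatment-naïve spheroids, 10.3-fold (10.1 to 10.5) lower. It was seen in 48.1% of paclitaxel-resistant and 85.6% of treatment-naïve cells, and cells with more than 5 PTGS2 UMIs were 6.56% and 56.1% of these populations. IL1B, interleukin-1 beta, had 1517 CPM in paclitaxel-resistant spheroids and 6477 CPM in treatment-naïve spheroids, 4.27-fold (4.19 to 4.35) lower. IL6, a cytokine of the same response, was 2.35-fold (2.31 to 2.40) lower at 1518 against 3570.2 CPM, and TNF was 5.06-fold (4.43 to 5.799) lower at 31.4 against 159 CPM. CXCL8, the neutrophil chemokine and the most abundant of these genes, had 44681 against 79543 CPM (1.78-fold lower), under the rule.

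The chemokines of the list differed in how many cells carried them. CXCL12, the ligand of CXCR4, had 16.2 CPM in paclitaxel-resistant spheroids and 669 CPM in treatment-naïve spheroids, 41.3-fold (34.7 to 49.5) lower, and was found in 1.20% of paclitaxel-resistant and 31.4% of treatment-naïve cells. CCL5, a T cell attractant, had 824 CPM in paclitaxel-resistant spheroids and 8074 CPM in treatment-naïve spheroids, 9.80-fold (9.55 to 10.04) lower, and was found in 11.8% of paclitaxel-resistant and 40.2% of treatment-naïve cells. CCL3, a chemokine with near-identical gene copies, was 50.98-fold (32.9 to 83.7) lower at 2.49 against 127 CPM, but 93.6% of its naïve UMIs came from the top 1% of cells and 30.5% from 1 cell. PTGDS, a prostaglandin D synthase, was 12.5-fold (6.40 to 27.8) lower on 9 against 151 UMIs, with 92.7% of the naïve UMIs in the top 1% of cells. At the upper end IL18 had 527 against 411 CPM (1.28-fold higher) and CSF1, the macrophage growth factor, 1407 against 1241 CPM (1.13-fold higher).

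**Figure D2:**
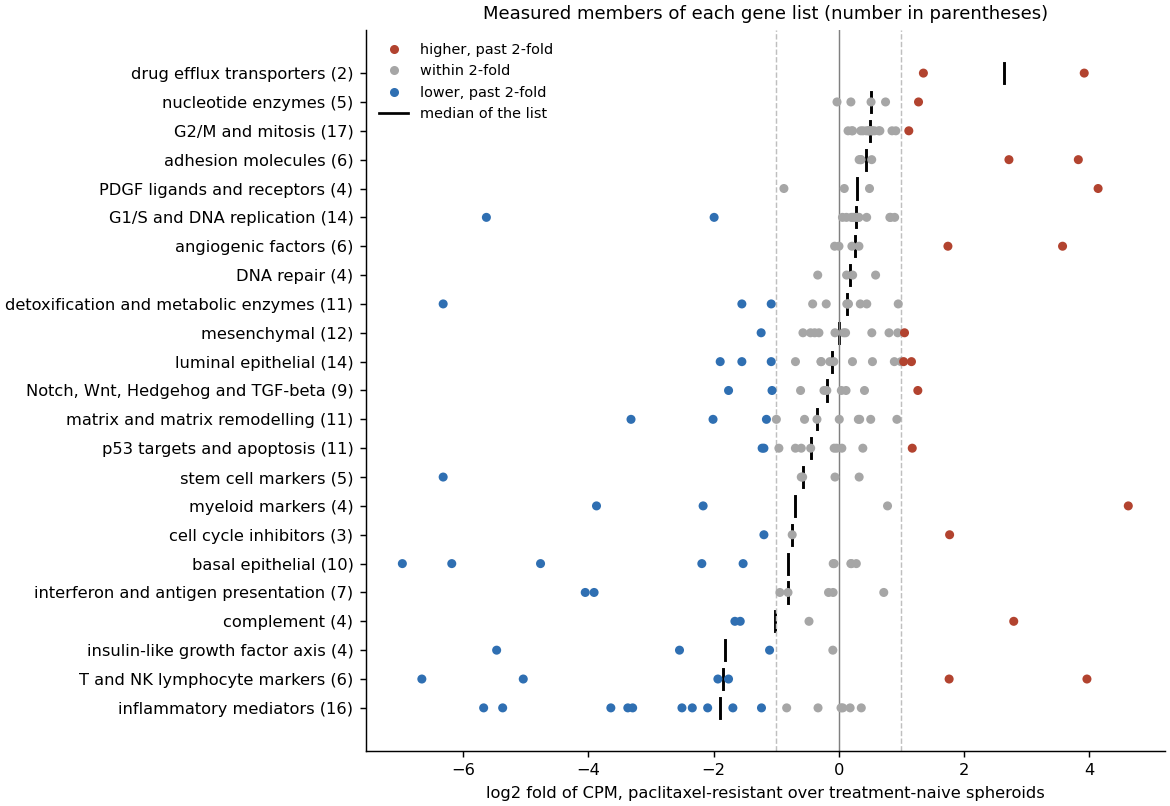
Log2 fold of CPM, paclitaxel-resistant over treatment-naïve spheroids, for each measured gene of the 23 lists with at least 2 measured genes, ordered by the median of the list (black bar). Red points are higher and blue points lower past 2-fold, grey points are within it, and dashed lines mark 2-fold. Inflammatory mediators lie lowest with a median of -1.89, close to T and NK lymphocyte markers at -1.85 and the insulin-like growth factor axis at -1.82. By mean CPM per cell and after thinning, both of those lists had lower medians than inflammatory mediators. All 17 G2/M genes lie right of 0.

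All 3 measured binding proteins of insulin-like growth factors were lower. IGFBP3 had 19.6 CPM in paclitaxel-resistant spheroids and 864 CPM in treatment-naïve spheroids, 44.2-fold (37.7 to 52.04) lower. A single resistant cell held 34.4% of its UMIs there, and without the top cell of each population the fold was 65.5. IGFBP5 was 5.83-fold (5.42 to 6.28) lower at 101 against 587 CPM and IGFBP7 2.15-fold (2.12 to 2.18) lower at 3542 against 7621 CPM. The IGFBP7 call was lost at 1.95-fold without the 5 genes most abundant in naïve spheroids in the total, and at 1.67-fold without the 5 most abundant over both populations. The receptor IGF1R was near equal at 298 against 318 CPM. IGFBP7 was seen in 68.7% of paclitaxel-resistant and 83.5% of treatment-naïve cells and IGFBP3 in 0.878% of paclitaxel-resistant and 22.7% of treatment-naïve cells.

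ALDH1A1, a retinaldehyde dehydrogenase used as a marker of breast stem-like cells, had 0.623 CPM in paclitaxel-resistant spheroids and 49.7 CPM in treatment-naïve spheroids, 79.8-fold (33.99 to 247) lower. It was the 1 of 5 measured stem cell markers past the rule. CD44 was abundant and near equal at 7676 against 8003 CPM, and CD24 had 138 against 209 CPM (1.51-fold lower). The detoxification list held 11 measured genes, of which ALDH1A1, CA12 and NAT1 were lower, beside 20.9% lower over all measured genes. Its upper end was BLVRA, biliverdin reductase, at 3152 against 1632 CPM, 1.93-fold (1.89 to 1.97) higher and seen in 92.7% of paclitaxel-resistant and 73.8% of treatment-naïve cells. AKR1C1, an aldo-keto reductase, and GSTP1, a glutathione transferase, were abundant, at 32523 against 29749 CPM and 14847 against 19823 CPM.

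Of 11 measured genes of p53 and apoptosis, 1 was higher and 2 were lower, near the 10% and 20.9% over all 249 measured genes. CDKN1A, the p21 inhibitor that p53 induces, had 2766 CPM in paclitaxel-resistant spheroids and 6335 CPM in treatment-naïve spheroids, 2.29-fold (2.26 to 2.33) lower, and more than 5 of its UMIs were counted in 12.9% of resistant and 37.1% of naïve cells. CASP5, an inflammatory caspase, was 2.34-fold (1.41 to 4.02) lower on 21 against 66 UMIs. BCL2, the inhibitor of mitochondrial apoptosis, was 2.26-fold (1.85 to 2.75) higher at 34.3 against 15.2 CPM, and BAX, which it opposes, had 1609.7 against 1233 CPM (1.31-fold higher). MDM2, the p53 ligase, had 51.8 against 101 CPM (1.94-fold lower). Of 3 measured cell cycle inhibitors, CDKN1A was lower, RB1 had 404 against 676 CPM and CDKN2A was 3.41-fold (2.17 to 5.49) higher on 71 against 28 UMIs, but 1 naïve cell held 67.9% of the naïve UMIs, and without the top cell of each population the fold was 7.33 but the call was lost because too few UMIs remained. Without the 2% of cells with most UMIs the fold was 2.09, and the call was lost as well. None of the 4 measured DNA repair genes passed the rule, and they ran from ATM at 1.26-fold lower to BRCA1 at 1.504-fold higher.

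Of 7 measured genes of interferon response and antigen presentation 2 were lower, and of 4 complement genes 2 were lower and 1 was higher. The shares over all measured genes were 20.9% lower and 10% higher. CD74, the invariant chain of class II molecules, was 16.6-fold (10.3 to 28.2) lower at 2.24 against 37.1 CPM, and HLA-DRA, a class II chain, 15.01-fold (6.23 to 47.2) lower on 5 against 101 UMIs. In naïve spheroids the top 1% of cells held 76.8% and 91.1% of these UMIs, so the difference rested on few naïve cells. CD274, which encodes PD-L1, had 73.03 against 44.4 CPM (1.65-fold higher). C1S, a protease of the classical complement pathway, had 1709 CPM in paclitaxel-resistant spheroids and 5397 CPM in treatment-naïve spheroids, 3.16-fold (3.10 to 3.22) lower, and was found in 63.4% of paclitaxel-resistant and 89.4% of treatment-naïve cells. C4A, a complement component whose near-identical copy C4B could share its reads, was 2.98-fold (2.81 to 3.15) lower at 191 against 568 CPM. C1QA, a subunit of C1q, was 6.94-fold (4.22 to 12.02) higher on 98 against 19 UMIs, with 97.96% of the resistant UMIs in the top 1% of cells. In the list of Notch, Wnt, Hedgehog and TGF-beta genes 1 of 9, SLIT2, was higher and 2 were lower, near the shares over all measured genes. NOTCH1 was 2.09-fold (1.92 to 2.28) lower and TGFB3 3.39-fold (3.03 to 3.80) lower, while APC lay at 351 against 264 CPM.

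Several of the largest folds belonged to leukocyte genes at very low levels. Of 6 measured T and NK lymphocyte genes 2 were higher and 4 lower, of 4 myeloid genes 1 was higher and 2 were lower, and the 1 measured B lymphocyte gene was lower. Over all measured genes 10% were higher and 20.9% lower. The data held 15 T and NK, 7 myeloid and 7 B lymphocyte genes of these lists, most of them too scarce to be measured. Several, such as PTPRC and CD86, reached 50 UMIs only in the population where they were high. These counts are thus in part set by that minimum. PTPRC, the phosphatase CD45, was 15.6-fold (6.32 to 49.9) higher on 58 against 5 UMIs. CCR2, a chemokine receptor, was 24.7-fold (8.01 to 123) higher on 55 against 3 UMIs, and LCK, a T cell kinase, 3.39-fold (2.65 to 4.38) higher on 227 against 90 UMIs. On the lower side RUNX3 had 1 against 136 UMIs, 101-fold (17.8 to 4021) lower, ZAP70 4 against 177 UMIs, 32.9-fold (12.6 to 122) lower and CD86 0 against 59 UMIs, at least 14.6-fold lower against the 3 counts that a count of 0 allows. FCRLA, an Fc receptor-like gene of B cells, was better counted, at 12.6 against 574 CPM, 45.6-fold (37.5 to 56.1) lower and in 1.06% of paclitaxel-resistant and 23.9% of treatment-naïve cells. The 6 lymphocyte markers present in the files summed to 28.7 CPM in resistant and 57.6 CPM in naïve spheroids, with CD3E at 2 and 1 UMIs. The 3 myeloid markers summed to 97.0 and 390.3 CPM, of which CD14 gave 85.1 against 382 CPM. Of the remaining markers, LYZ had 7 and 19 UMIs. The part of leukocytes in these values was not tested.

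The share of cells that carried a gene, taken from the same UMIs as its level, moved with the level. All 25 higher genes were seen in a larger share of resistant cells at the common depth, and 51 of 52 lower genes in a smaller share. The exception was KRT17, seen in 99.2% of paclitaxel-resistant and 98.4% of treatment-naïve cells. The 10 largest differences in share were those of ABCB1, PTGS2, DCN, CXCL12, CCL5, C1S, ESM1, IL1B, TYMS and FCRLA, of which FCRLA stood at 1.06% against 23.9% of naïve cells. Without thinning, the share of cells differed in the direction of the call for 76 of the 77 called genes. In paclitaxel-resistant and treatment-naïve cells these unthinned shares were 72.7% and 94.2% for PTGS2, 33.3% and 69.4% for DCN, 3.10% and 50.5% for CXCL12 and 4.30% and 33.7% for KRT14, the resistant and the naïve cells standing in the same order as at the common depth. In paclitaxel-resistant and treatment-naïve cells they were 50.8% and 10.1% for ESM1, 50.3% and 14.1% for CDH6, 96.6% and 86.4% for ITGA6 and 83.4% and 70.6% for PDGFRB. Transcripts were heaped on few naïve cells for several higher genes. For 9 of the 25 higher genes the top 1% of naïve cells held over 50% of the naïve UMIs, among them PDGFB (69.4%) and ABCB1 (54.5%), whereas the top 1% of resistant cells held 20.7% and 12.99% of the UMIs of these genes. The top 1% of resistant cells held over 50% of the resistant UMIs for 4 of the 25 higher genes. Genes called higher have fewer naïve than resistant UMIs by selection. Few UMIs lie in few cells by count alone, as with PTPRC on 5 naïve UMIs. These counts were not set against genes with like numbers of UMIs, so they do not compare the spread in the populations.

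**Figure D3:**
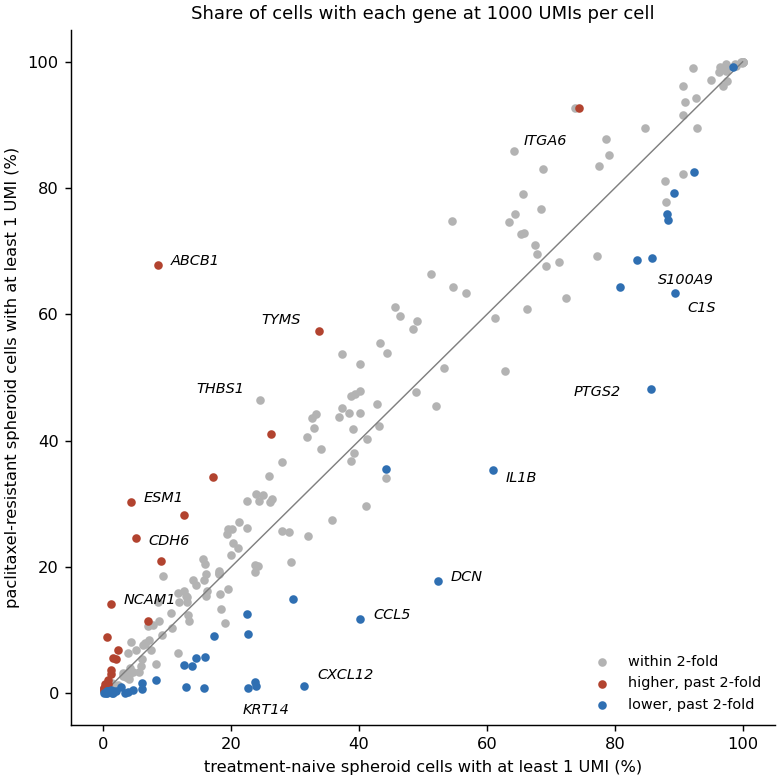
Share of cells with at least 1 UMI of each of the 249 measured genes after thinning to 1000 UMIs per cell, paclitaxel-resistant spheroids (vertical axis) against treatment-naïve spheroids (horizontal axis), in percent. Red and blue points are genes higher and lower past 2-fold in CPM, and the line marks equal shares. ABCB1 stands at 67.8% against 8.52%, PTGS2 at 48.1% against 85.6%.

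**Figure D4:**
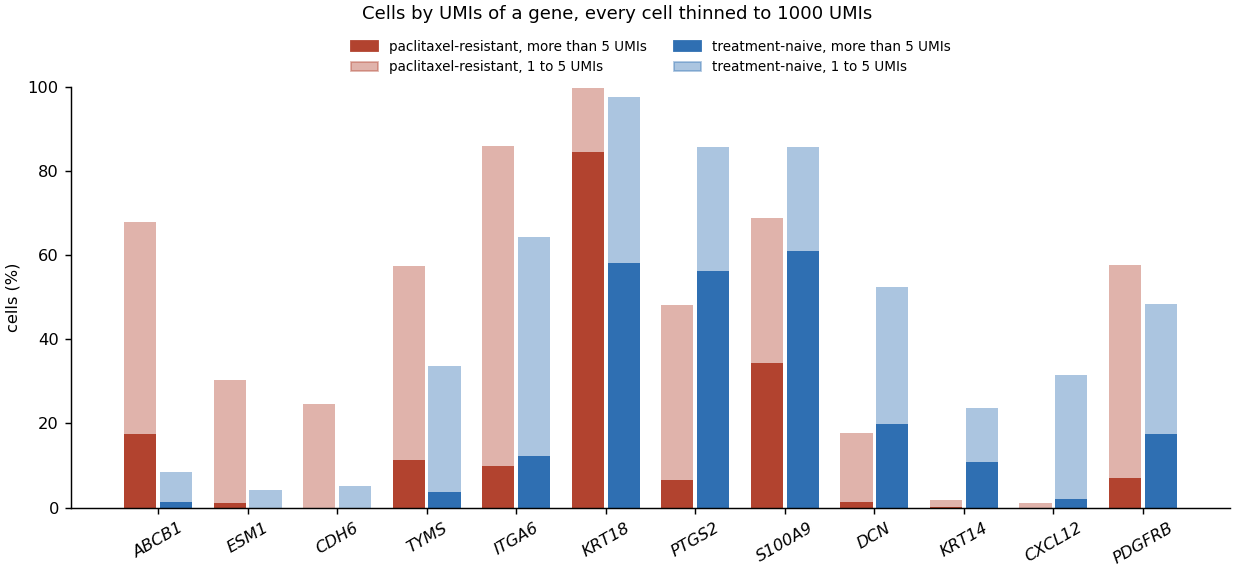
Percentage of cells with more than 5 UMIs (solid) and with 1 to 5 UMIs (pale) of 12 genes after thinning to 1000 UMIs, paclitaxel-resistant spheroids in red to the left of treatment-naïve spheroids in blue. ITGA6 and PDGFRB reach more of the resistant cells in all but fewer with more than 5 UMIs, and KRT18 passes 5 UMIs in 84.5% against 58.2%.

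The same contrast in attached cells, which shares no cells with the spheroids, had more genes past the rule. There 53 of 262 measured genes were higher (20.2%) and 66 lower (25.2%). Over the 241 genes measured in both cultures, 16 of 22 genes higher in spheroids were also higher in attached cells (72.7%, and 34.0% of the 47 attached ones), and 36 of 47 genes lower in spheroids were lower in attached cells (76.6%, and 61.0% of the 59 attached ones). The log2 folds correlated across genes with Pearson's r of 0.81 and Spearman's rho of 0.72, a description over genes, which are not independent replicates. The absolute log2 fold was larger in attached cells for 152 of the 241, with medians of 0.53 in spheroids and 0.81 in attached cells.

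The genes whose contrast differed most between cultures are set out as spheroid minus attached log2 folds. Toward higher values in spheroids these were AREG, an EGFR ligand, at 4.39 (4.27 to 4.51), ICOSLG, a costimulatory ligand, at 3.79 (3.28 to 4.29), S100A9 at 2.87 (2.81 to 2.92) and IL1B at 2.71 (2.67 to 2.74). AREG had 157 against 166 CPM in spheroids, whereas in attached cells it stood at 114 CPM in resistant and 2543 CPM in naïve cells. S100A9 was lower in both cultures, with 106 CPM in attached resistant and 4383 CPM in attached naïve cells. Toward lower values in spheroids they were KRT5 at -3.81 (-4.65 to -2.98), HLA-DRA at -3.48 (-4.80 to -2.16), C4A at -3.34 (-3.43 to -3.24) and DCN at -2.94 (-3.02 to -2.85). KRT5 was scarce in attached cells, with 0.769 CPM in resistant and 3.97 CPM in naïve cells, beside 479 CPM in naïve spheroids. DCN had 168 and 219 CPM in the same attached populations and was not past the rule there. ABCB1 had log2 folds of 3.92 in spheroids and 4.99 in attached cells, and ESM1 3.57 and 1.75.

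**Figure D5:**
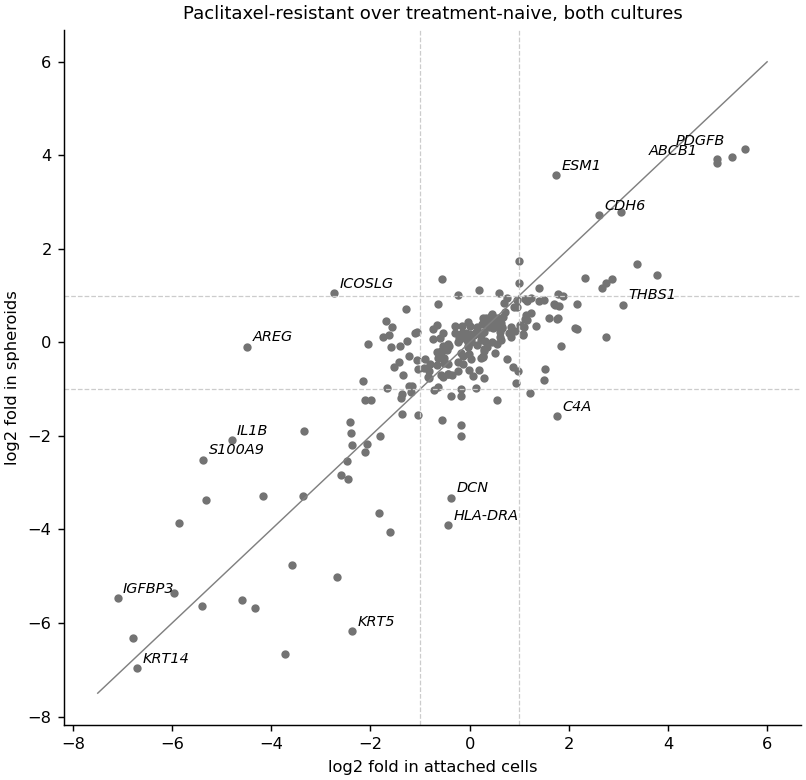
Log2 fold of CPM, paclitaxel-resistant over treatment-naïve, in spheroids (vertical axis) and in attached cells (horizontal axis) for the 241 genes measured in both cultures, with the line of equal folds and dashed lines at 2-fold. ICOSLG and C4A lie past 2-fold in opposite directions, and AREG has a log2 fold of -0.09 in spheroids and -4.48 in attached cells.

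Set side by side with the doxorubicin-resistant spheroids, in which 44 of 259 measured genes were higher (17%) and 47 lower (18.1%) than in the same treatment-naïve cells, ABCB1 had log2 folds of 3.92 with paclitaxel and 4.75 with doxorubicin. The log2 folds of ESM1 were 3.57 and 3.89, those of PDGFB 4.14 and 3.00 and those of KRT14 -6.97 and -5.51. All 25 genes higher in the paclitaxel-resistant spheroids also had log2 folds above 0 with doxorubicin, though both contrasts share the naïve cells. Among lower genes, IL6, C4A and CCL3 are examples of unlike folds and no measure of how common these were. IL6 had -1.23 and 0.33, C4A -1.57 and 0.08, and CCL3 -5.67 and -0.31.

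The 3 spheroid populations shared a cartridge, and the low levels of some genes are given as a percentage of the level in another of these populations. CCL4, TCL1A, STK32B and CXCL14, picked after their values were seen because doxorubicin-resistant spheroids had most of their UMIs, stood in paclitaxel-resistant spheroids at 0.692% to 4.66% and in treatment-naïve spheroids at 1.40% to 5.83% of the doxorubicin level. The naïve level of PDGFB was 5.66%, of ABCB1 6.60%, of NCAM1 7.05%, of ESM1 8.39% and of CDH6 15.2% of the level in paclitaxel-resistant spheroids. Doxorubicin-resistant spheroids on the same cartridge also had these genes, at 53.4 CPM of PDGFB, 6270.0 of ABCB1, 163 of NCAM1, 812 of ESM1 and 142 of CDH6, of which ABCB1, NCAM1 and ESM1 lay above the paclitaxel-resistant level. In the opposite direction the resistant level of KRT14 was 0.797%, of KRT5 1.38% and of IGFBP3 2.26% of the naïve level. No cell label was shared between populations, as the sorting of each barcode to 1 sample tag would give, and this is no measure of carried-over RNA. The part of free RNA or of mixed barcodes in the low levels, and so in the size of the folds, was not tested.

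Barcodes with fewer than 1000 UMIs, which were left out, gave smaller folds. There were 1587 of them in the paclitaxel-resistant and 1920 in the treatment-naïve spheroids, with medians of 162 and 169 UMIs and 5.07% and 4.53% of all UMIs. Of the 77 genes called in the kept cells, 68 had the same direction among these barcodes, and 19 met the same rule there. The median ratio of the log2 folds was 0.42. ABCB1 had a log2 fold of 0.66 among these barcodes, KRT14 of -3.44 and PTGS2 of -1.33, beside 3.92, -6.97 and -3.37 in the kept cells.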

How the data were processed

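Targeted single-cell RNA sequencing used the BD Rhapsody system with its Onco-BC panel, and about 15000 cells per culture were loaded on 1 cartridge. The authors deposited counts, that is UMIs per gene and cell after the RSEC adjustment of the vendor's pipeline, 1 matrix per population. The submitters' processing notes name hg38. Filters on cells before deposit, and the handling of cells with several tags, are not given in the sources used here. The file lists 373 gene symbols, of which 363 matched RefSeq symbols.

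Cells under 1000 UMIs were left out and no doublet caller was run. UMIs were summed per gene and scaled to 1000000. Folds carry exact conditional binomial intervals, CPM exact Poisson intervals and shares exact Clopper-Pearson bounds, all at 95% and covering counting error only. Calls required 2-fold and 50 UMIs. A gene with 0 UMIs was set against 3 counts. For shares each cell was thinned to 1000 UMIs by a seeded draw. With 1 population per group no test was run. The spheroid label gives the population as treated, and resistant follows the series design.

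The named genes were the 12 largest folds in each direction, the 2 highest and 2 lowest members of each of 24 gene lists, genes the study singles out, the 10 largest changes in share, the 4 genes in each direction that differed most from attached cells and the 5 genes most abundant in naïve spheroids. The cells, lists and genes were chosen with earlier results of these data known. Alternatives were all barcodes, at least 2000 UMIs, barcodes under 1000 UMIs, leaving out the 2% of cells with most UMIs, unscaled totals, totals without the 5 genes most abundant in naïve spheroids, mean CPM per cell, median of ratios scaling, thinned counts, other minimums (0, 20 and 100 UMIs) and limits (1.5-fold and 3-fold), and, added after the data had been seen, totals without the 5 genes most abundant over both populations and leaving out the top cell of each gene. Results for a few genes are not reported here. The procedure was tested on simulated Poisson counts scaled by their intended totals. These hold neither a shift from scaling to observed totals nor UMIs heaped in single cells, so the test does not cover them. Python 3.11.15, numpy 2.4.6, scipy 1.17.1, pandas 2.3.3 and matplotlib 3.10.9 were used, and promoters came from the RefSeq table of GRCh38.p14.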

Additional observations from a re-analysis of the deposited data

Results flagged for a closer look

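For 3 genes the contrast of paclitaxel-resistant with treatment-naïve cells passed the size rule in opposite directions in spheroids and in attached cells. The difference was not tested, since each culture had 1 population per condition, and the log2 differences below are spheroid minus attached with intervals for counting error only. ICOSLG, a costimulatory ligand, differed by 3.79 (3.28 to 4.29). It had 41.4 against 20.01 CPM in resistant against naïve spheroids and 2.05 against 13.7 CPM in attached cells. C4A, the complement component, differed by -3.34 (-3.43 to -3.24), with 191 against 568 CPM in spheroids and 486 against 143 CPM in attached cells. NAT1, an arylamine acetyltransferase, differed by -2.29 (-3.17 to -1.41), on 19 against 54 UMIs in spheroids and 139 against 55 UMIs in attached cells. The spheroid calls of ICOSLG and NAT1 did not hold in all settings. That of ICOSLG was lost with unscaled totals and in cells with at least 2000 UMIs (1.90-fold), and that of NAT1 without either set of 5 abundant genes in the total, without the 2% of cells with most UMIs and after thinning.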

How the results depend on the processing

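The kept cells gave 25 higher and 52 lower genes. The count of higher genes was 4 among barcodes under 1000 UMIs, 13 with unscaled totals, 16 in cells thinned to 1000 UMIs, 45 without the 5 genes most abundant over both populations in the total, 41 with no minimum of UMIs, 47 at a limit of 1.5-fold and 12 at 3-fold. The count of lower genes was 16 among barcodes under 1000 UMIs, 78 with unscaled totals and 37 after thinning. Fewer UMIs per gene are part of the thinned and the shallow settings by construction, and fewer resistant than naïve cells are part of the unscaled totals. For the other part of these shifts the cause was not tested. Among barcodes under 1000 UMIs the fold turned to 3.58 for CD86, 0.796 for CDKN2A and 0.796 for PTPRC, each resistant over naïve and on few UMIs. In the other 10 settings of cells and scaling all 77 called genes kept their direction, except that IL17F had no UMI left without the top cell of the gene, an alternative chosen after the data had been seen. In these settings the fold moved by over 1.5 times for ALDH1A1, C1QA, CCL3, CCR2, CDH3, CDKN2A, HLA-DRA, KRT14, PTGDS, PTPRC, RUNX3, TCF4 and ZAP70. Only called genes with UMIs in both populations were counted here. The 4 scalings of the totals each change all folds by 1 common factor of under 1.5. They could therefore neither move a fold that far nor turn the direction of a called gene. Thinning ended 25 of the 77 calls. No paired analysis was possible because each population was 1 unreplicated culture, and no population could be left out in turn. Depth limits most the 11 called genes with under 100 UMIs in the higher population.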

Other observations

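Of the 77 genes past the size rule, 15 stood in none of the gene lists, 6 higher and 9 lower in the paclitaxel-resistant spheroids. They are described here by their values, and those outside the naming rule were chosen after their values were seen. MYB, a transcription factor of progenitor cells, had 39.4 CPM in paclitaxel-resistant spheroids and 12.3 CPM in treatment-naïve spheroids, 3.20-fold (2.60 to 3.94) higher. GPNMB, a membrane glycoprotein of melanosomes and macrophages, was 2.73-fold (2.45 to 3.05) higher at 122 against 44.7 CPM, and 72.5% of its naïve UMIs lay in the top 1% of naïve cells. RNASE4, a secreted ribonuclease, was 2.62-fold (2.48 to 2.76) higher at 473 against 181 CPM and was seen in 34.2% of paclitaxel-resistant and 17.2% of treatment-naïve cells at the common depth. TCF4 was 2.56-fold (1.86 to 3.55) higher on 116 against 61 UMIs, ICOSLG 2.07-fold (1.74 to 2.47) higher on 332 against 216 UMIs and the hair keratin KRT81 2.02-fold (1.33 to 3.09) higher on 60 against 40 UMIs.

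FGFR4, a fibroblast growth factor receptor, had 7.48 CPM in paclitaxel-resistant spheroids and 241 CPM in treatment-naïve spheroids, 32.2-fold (24.9 to 42.3) lower, and was seen in 0.832% of paclitaxel-resistant and 15.8% of treatment-naïve cells. The TNF family ligands TNFSF13 and TNFSF13B, known as APRIL and BAFF, were 9.71-fold (5.84 to 17.3) and 7.61-fold (4.62 to 13.4) lower on 16 against 209 UMIs and 17 against 174 UMIs. STAT5A, a cytokine-activated transcription factor, was 7.12-fold (5.31 to 9.73) lower on 50 against 479 UMIs, RARB, a retinoic acid receptor, 6.03-fold (4.00 to 9.45) lower on 26 against 211 UMIs and BCL6, a transcriptional repressor, 2.03-fold (1.90 to 2.17) lower at 158 against 321 CPM. The BCL6 call held in only 4 of 10 other settings, and was lost with all barcodes, without the 2% of cells with most UMIs, by mean CPM per cell, after thinning and without either set of 5 abundant genes. HIC1 and LAG3 were 2.20-fold and 2.08-fold lower, each on fewer than 100 UMIs. IL17F passed the rule at 0 against 74 UMIs, at least 18.3-fold lower against 3 counts, but all 74 UMIs came from 1 naïve cell.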
